A study of Mus musculus with 6 samples.

Results

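The antiviral TRIM proteins described here are 10 mouse genes, *Trim12a*, *Trim12c*, *Trim14*, *Trim21*, *Trim25*, *Trim30a*, *Trim30b*, *Trim30c*, *Trim30d* and *Trim34a*. They were chosen by symbol as the IFN-linked TRIM E3 ubiquitin ligases and their near relatives. Their values were not used in the choice, but earlier results of these data were known when it was made. They are 10 of the 55453 genes in the table. All 10 passed the filter on low counts, which left 13680 genes. RNA-Seq compared 3 libraries of bone marrow-derived macrophages (BMDM) from *LysMcrePP2Ac fl/fl* mice (PP2Ac KO) with 3 from WT mice (PP2Ac WT), all of the C57BL/6 strain. In the KO mice, *cre* driven by the *LysM* promoter deletes part of *Ppp2ca*, which encodes the catalytic subunit PP2Ac of the phosphatase PP2A, in myeloid cells. By the study's account, the KO mice came from the University of Michigan and the WT mice from The Jackson Laboratory. Genotype and source of the mice therefore cannot be told apart here. The labels give no treatment, and the study describes its RNA-Seq as made on BMDM treated with cGAMP, the ligand of the DNA-sensing adaptor STING, and none of these 6 libraries is labelled as untreated. The labels number the replicates of each genotype from 1 to 3 but do not say whether they came from separate mice or cultures, and the p-values then measure only the spread between these libraries.

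TRIM proteins are built from a RING domain that transfers ubiquitin, B-box domains and a coiled coil, often followed by a PRY/SPRY domain that binds the target. Many of them are themselves encoded by IFN-stimulated genes, and in macrophages they act on viral capsids, on antibody-coated particles and on the sensors and adaptors of the nucleic acid and NF-κB pathways. The *Trim5*/*Trim12*/*Trim30*/*Trim34* genes have multiplied in rodents, so that the mouse carries several copies of each kind.

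Between 35257156 and 47390899 reads were counted per library. *Ppp2ca* was at 1.11, 0.9996 and 0.911 CPM (counts scaled to a common library size with the trimmed mean of M values, TMM) in KO replicates 1 to 3, against 214, 205 and 197 CPM in WT replicates 1 to 3, as the labels state. The 8 macrophage markers together gave 8623 to 8733 CPM in KO and 7279 to 7840 CPM in WT. *Fcgr1* (log2 fold change 0.70) and *Mertk* (0.27) rose, and the other 6 did not pass the test, where 18.1% of all genes were called higher. When replicate number entered the fit as a block, 5 of the 8 rose, against 24.4% of all genes. *Lyz2*, the gene of the *LysM* promoter, was the lowest of the 8, at 8.60, 7.88 and 10.1 CPM in KO and at 6.58, 6.99 and 8.32 CPM in WT. The reason for these low counts was not tested, and they are not taken as a measure of how active the *LysM* promoter was. The markers of T and NK cells, B cells, neutrophils and mast cells together gave at most 1.34 CPM a list in any library, with *Cd8a*, *Ly6g*, *Tpsb2* and *Mcpt4* at 0 in all 6. The 6 fibroblast markers gave 23.3 to 34.96 CPM in KO and 76.6 to 121 CPM in WT. All 5 of them that could be tested were lower in KO, against 19% of all genes. The 5 dendritic cell markers gave 68.0 to 72.7 CPM in KO and 104 to 116 CPM in WT, nearly all of it from *Itgax*. The part of these other cells in the results below was not tested, and in bulk libraries fewer cells of a type and less RNA per cell cannot be told apart.

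Of the 10 genes, 7 lie side by side in a cluster of 263 kb on chromosome 7 (GRCm38, 104244457 to 104507849). From the centromeric end this cluster holds *Trim34a* on the forward strand, then *Trim12a*, *Trim12c*, *Trim30b*, *Trim30c*, *Trim30a* and *Trim30d*, all 6 on the reverse strand. *Trim5*, on the reverse strand, and *Trim34b*, on the forward strand, are the other Trim genes of the cluster. *Trim21* lies on the same chromosome but 1.68 Mb away (102557921 to 102565486, reverse strand). *Trim14* lies on chromosome 4 (46493781 to 46536141, reverse strand) and *Trim25* on chromosome 11 (88999376 to 89020293, forward strand).

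The promoters of these genes, from 250 bases before to 50 after the start site in RefSeq (GRCm38.p6), were searched on both strands for the letters GAAANNGAAA, an ISRE-like motif of the kind bound by factors that IFN activates. RefSeq had a promoter for 9 of the 10 genes (not *Trim14*). The letters were present in 6 of the 9, *Trim12a*, *Trim12c*, *Trim21*, *Trim30a*, *Trim30d* and *Trim34a*, and were not found in those of *Trim25*, *Trim30b* and *Trim30c*. Among all 32851 promoters of the same length, 3.44% held them. The sequences around the motif are shown to let the letters around it be compared between genes. Each is written 5′ to 3′ on the strand of its gene, in lower case with the motif, or its reverse complement, in capitals.
Trim12a (chr7:104315466-104315520, reverse strand): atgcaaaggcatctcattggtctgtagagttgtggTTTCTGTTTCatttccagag
Trim12c (chr7:104353359-104353413, reverse strand): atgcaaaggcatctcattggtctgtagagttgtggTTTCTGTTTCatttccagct
Trim30a (chr7:104465210-104465264, reverse strand): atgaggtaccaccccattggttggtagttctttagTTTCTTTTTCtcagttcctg
Trim30d (chr7:104507871-104507925, reverse strand): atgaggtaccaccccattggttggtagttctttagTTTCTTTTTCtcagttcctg
Trim34a (chr7:104244432-104244486, forward strand): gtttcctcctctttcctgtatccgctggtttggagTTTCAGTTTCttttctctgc
Trim21 (chr7:102565453-102565504, reverse strand): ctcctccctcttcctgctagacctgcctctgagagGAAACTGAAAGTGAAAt

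The windows of *Trim30a* and *Trim30d* were identical over their 55 bases, those of *Trim12a* and *Trim12c* differed at 2 of 55, and those of *Trim12a* and *Trim30a* at 25 of 55. The window of *Trim5*, which is not among the 10 genes, was identical to that of *Trim12a* over 55 bases. In *Trim21* 2 overlapping matches made up the run in capitals. The motif began 36 bases before the start site of *Trim30a*, 41 before that of *Trim30d* and 29 before that of *Trim12c*. It began 10 bases after the start sites of *Trim12a* and *Trim34a*, and 13 after that of *Trim21*. For a second *Trim30a* start in RefSeq, 19.1 kb inside the gene, the same 10 letters began 2 bases after the start. The RefSeq start of *Trim30b* lay 11.2 kb inside the gene as GENCODE draws it, so that the window searched for this gene does not cover the outermost GENCODE start.

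A GAS-like motif, the palindrome TTCNNNGAA, was found in 1 of the 9 promoters, that of *Trim30c*, 62 bases before its start, against 8.30% of all promoters. A count of 1 in 9 is near that background.

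To ask whether this group of antiviral genes differed with the loss of PP2Ac, each gene was compared between genotypes. Of the 10 genes, 9 rose in PP2Ac KO BMDM, by 1.55- to 2.67-fold, and *Trim25* did not pass the test (Benjamini-Hochberg adjusted p under 0.05 in the quasi-likelihood test of edgeR). Across all genes tested, 18.1% were called higher by the same rule. None of the 10 was lower, where 19% of all genes were called lower, and no log2 fold change among them was below 0 in this fit or in the fits with DESeq2, limma-voom and the other settings. The median log2 fold change was 0.68 over the 10 genes and -0.024 over all genes tested. Together the 10 genes gave 2997 to 3341 CPM in KO and 1753 to 2312 CPM in WT. The groups did not overlap, with all 3 KO libraries above all 3 WT libraries, for 9 of the 10, as for 24% of all genes. At the study's own threshold for upregulation, a log2 fold change over 1 with an adjusted p under 0.01, 2 of the 10 passed, *Trim30b* and *Trim30c*, against 3.36% of all genes.

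**Figure D1:**
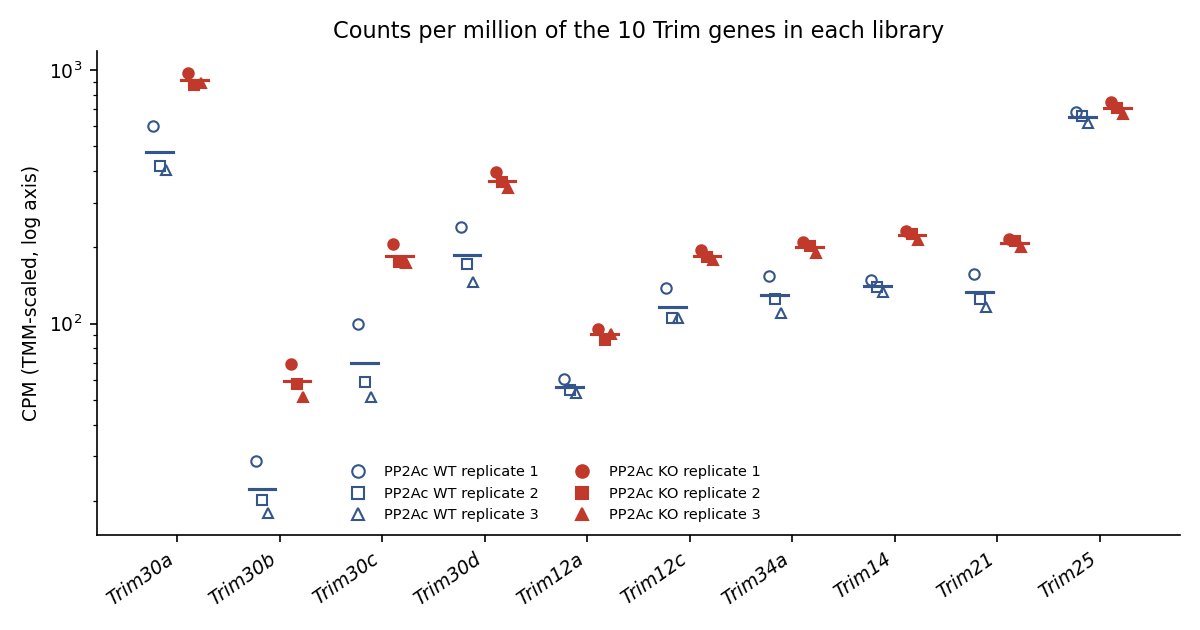
The level of each of the 10 Trim genes in each library, in TMM-scaled CPM on a log axis, with WT in open and KO in filled symbols, 1 shape per replicate number, and a bar at each group's mean. All KO points lie above all WT points for 9 genes, whereas for *Trim25* KO runs from 671 to 746 CPM and WT from 617 to 681 CPM, and replicate 1 is the highest of its group for every gene.

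The *Trim30* genes showed the largest changes. *Trim30a* encodes TRIM30α, which is known to dampen NF-κB signaling by the degradation of TAB2 and TAB3 and to restrain the NLRP3 inflammasome. It was at 976, 872 and 885 CPM in KO and at 602, 419 and 403 CPM in WT. All KO libraries were above all WT libraries, and WT replicate 1 stood nearer to the KO libraries than the other WT libraries did. The log2 fold change was 0.94 ± 0.143 (SE, n = 3 per group, edgeR adjusted p = 0.00097).

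*Trim30d*, which encodes an antiviral protein reported to act on tick-borne flaviviruses, was at 396, 361 and 343 CPM in KO and at 241, 172 and 146 CPM in WT. Its groups were separated and WT replicate 1 was again the highest WT library. Its log2 fold change, 0.98 ± 0.160 (SE, edgeR adjusted p = 0.0014), differed from that of *Trim30a* by less than either SE. The ratio of *Trim30d* to *Trim30a* counts within a library was 38.7% to 41.5% in KO and 36.1% to 41.1% in WT. These ranges overlapped, and the log2 ratio differed by 0.043 between genotypes (exact 2-sided permutation test without pairing, n = 3 per group, p = 0.60). Within replicate numbers 1, 2 and 3 the log2 ratio was higher in KO by 0.017, 0.014 and 0.098, without a test.

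*Trim30c* and *Trim30b* are further copies of the same family and lie between *Trim30a* and *Trim12c*. *Trim30c* was at 206, 175 and 174 CPM in KO and at 99.9, 58.8 and 51.4 CPM in WT. *Trim30b* was the lowest of the 10 genes, at 69.6, 57.6 and 51.5 CPM in KO and at 28.8, 20.1 and 17.9 CPM in WT. In both genes the lowest KO library was above the highest WT library, by more than the KO libraries differed among themselves. The log2 fold changes were 1.40 ± 0.214 for *Trim30c* (SE, edgeR adjusted p = 0.0010) and 1.42 ± 0.171 for *Trim30b* (SE, edgeR adjusted p = 0.00033), that is, 2.64- and 2.67-fold.

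The makeup of the *Trim30* counts differed accordingly. *Trim30c* supplied 11.96% to 12.5% of the counts of the 4 *Trim30* genes in KO and 8.32% to 10.3% in WT. *Trim30b* supplied 3.55% to 4.23% in KO and 2.898% to 2.997% in WT. *Trim30a*, the main gene of the 4, supplied 59.2% to 60.9% in KO and 61.9% to 65.2% in WT. The ranges of these 3 genes did not overlap between genotypes, and those of *Trim30d*, 23.6% to 24.7% in KO and 23.6% to 25.7% in WT, did. With 3 libraries a group, no exact permutation test of such a value can give a p below 0.1, and the shares are given without a test.

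*Trim12a* and *Trim12c* are mouse relatives of the retroviral restriction factor gene *TRIM5*. *Trim12a* was at 94.9, 86.4 and 90.9 CPM in KO and at 60.3, 54.9 and 53.2 CPM in WT. *Trim12c* was at 195, 184 and 178 CPM in KO and at 138, 105 and 106 CPM in WT. The groups were separated in both genes. The log2 fold change was 0.69 ± 0.0686 for *Trim12a* (SE, edgeR adjusted p = 0.00014) and 0.67 ± 0.107 for *Trim12c* (SE, edgeR adjusted p = 0.0012). The *Trim12c* count was 196% to 212% of the *Trim12a* count in KO and 191% to 229% in WT, and the log2 ratio differed by -0.0095 between genotypes (exact 2-sided permutation test without pairing, n = 3 per group, p = 0.90). Within replicate numbers 1, 2 and 3 the difference was -0.16, 0.15 and -0.021, with no common sign.

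*Trim34a*, at the other end of the cluster and on the opposite strand, was at 209.9, 203 and 190.0 CPM in KO and at 155, 125 and 109.7 CPM in WT. The groups were separated, and the log2 fold change of 0.63 ± 0.115 (SE, edgeR adjusted p = 0.0024) was the smallest of the 9 that passed. Its count was 21.5% to 23.3% of the *Trim30a* count in KO and 25.7% to 29.9% in WT. The log2 ratio differed by -0.32 in KO against WT, with no overlap between groups (exact 2-sided permutation test, n = 3 per group, p = 0.10, the smallest that 3 against 3 libraries can give). Within replicate numbers 1, 2 and 3 the difference was -0.26, -0.36 and -0.34.

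**Figure D2:**
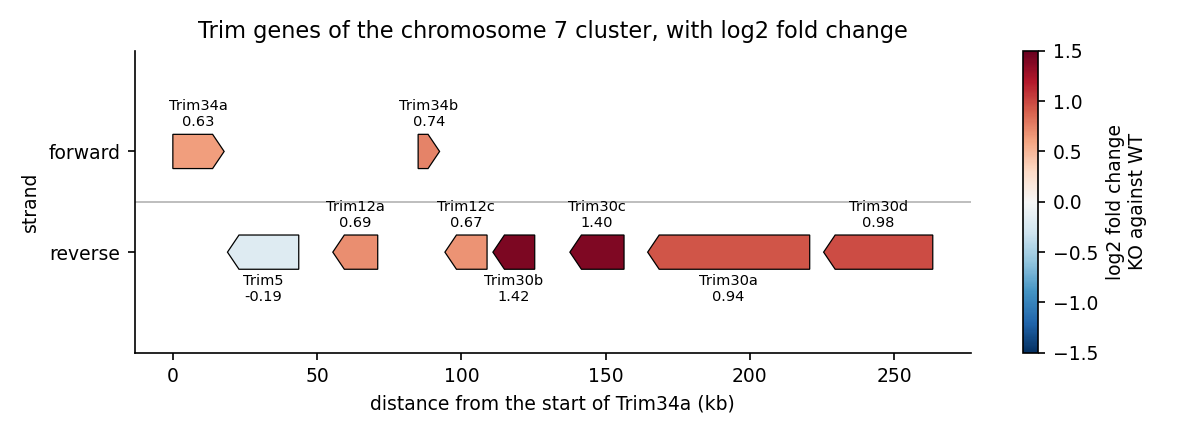
The Trim genes of the chromosome 7 cluster drawn to scale, with distance from the start of *Trim34a* in kb on the x axis, genes of the forward strand above and of the reverse strand below, each arrow coloured and labelled with its log2 fold change, KO against WT. Values run from -0.19 for *Trim5* to 1.42 for *Trim30b*, and the 4 *Trim30* genes at the right have the highest values.

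Within the cluster, the genes that are not among the 10 had low levels. *Trim5* was at 14.0, 15.2 and 14.9 CPM in KO and at 17.6, 16.5 and 16.4 CPM in WT, with all KO libraries below all WT libraries. Its log2 fold change was -0.19 ± 0.0702 (SE, edgeR adjusted p = 0.056, and 0.026 in the fit blocked by replicate number). *Trim34b* was at 1.04, 1.06 and 1.10 CPM in KO and at 0.664, 0.4599 and 0.787 CPM in WT, with a log2 fold change of 0.74 ± 0.236 (SE, edgeR adjusted p = 0.035). It had only 20 to 46 counts per library and shares sequence with *Trim34a*, as described below. Whether reads of *Trim34a* were counted for *Trim34b* was not tested. Of the 7 other annotated genes between *Trim34a* and *Trim30d*, *Gm16464*, a processed pseudogene in an intron of *Trim30d*, had a log2 fold change of 1.03 (edgeR adjusted p = 0.0023) at 3.71 CPM in KO and 1.83 CPM in WT. It lies on the same strand as *Trim30d*, and the part of *Trim30d* intron reads in its counts was not tested. *Gm15133*, an antisense gene beside *Trim12a*, had a log2 fold change of 0.46 (edgeR adjusted p = 0.027).

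The genes outside the cluster were *Trim14*, *Trim21* and *Trim25*. TRIM14, which lacks the RING domain, serves as a scaffold at MAVS and protects cGAS from degradation through USP14. *Trim14* was at 232, 227 and 213 CPM in KO and at 149, 139 and 133 CPM in WT. The groups were far apart against a narrow spread within each, and the log2 fold change was 0.67 ± 0.0697 (SE, edgeR adjusted p = 0.00017). TRIM21 is the cytosolic antibody receptor that sends antibody-coated viruses to the proteasome. *Trim21* was at 216, 211 and 200.4 CPM in KO and at 157, 126 and 117 CPM in WT. Its groups were separated too, with a log2 fold change of 0.65 ± 0.105 (SE, edgeR adjusted p = 0.0013).

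TRIM25 attaches ubiquitin chains to the RNA sensor RIG-I and is a cofactor of the zinc-finger antiviral protein. *Trim25* was at 746, 707 and 671 CPM in KO and at 681, 662 and 617 CPM in WT. It was among the genes with the highest counts of the 10, the groups overlapped, and the lowest KO library lay below the highest WT library. The log2 fold change was 0.12 ± 0.0725 (SE, edgeR adjusted p = 0.24), with a 95% interval from -0.046 to 0.28 that lies below the fold change of each of the other 9 genes. When replicate number entered the fit as a block, the log2 fold change was again 0.12 and *Trim25* passed (edgeR adjusted p = 0.030), so that 10 of the 10 were then higher, against 24.4% of all genes.

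Levels of different genes were compared per kb of merged exons. In WT, *Trim30a* (115.5 ± 26.8 CPM per kb, SD, n = 3) and *Trim25* (113 ± 5.71) were the highest and overlapped. *Trim34a* (50.1 ± 8.80), *Trim30d* (49.6 ± 13.1), *Trim30c* (40.8 ± 15.2), *Trim21* (35.9 ± 5.73), *Trim14* (32.3 ± 1.90) and *Trim12c* (31.1 ± 5.08) followed, each overlapping its neighbour in the order. *Trim12a* (9.71 ± 0.640) and *Trim30b* (2.96 ± 0.766) were lower, each separated from the gene above. In KO the order of the top 5 was *Trim30a* (222 ± 13.8 CPM per kb, SD, n = 3), *Trim25* (123 ± 6.53), *Trim30c* (108 ± 10.5), *Trim30d* (97.6 ± 7.17) and *Trim34a* (77.5 ± 3.89). *Trim30a* and *Trim25*, which overlapped in WT, were thus apart in KO. The KO libraries of *Trim30c* (101.5 to 120 CPM per kb) overlapped those of *Trim25* (117 to 130) and those of *Trim30d* (91.2 to 105). With the longest transcript as the length, *Trim14* moved from rank 7 to rank 4 in WT, *Trim34a* from 3 to 5 and *Trim30c* from 5 to 7. In KO, *Trim30d* (112 CPM per kb) was then above *Trim30c* (108), and *Trim14* (84.4) above *Trim34a* (77.6).

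The replicate number moved with the level of these genes. Replicate 1 was the highest library of its genotype for 10 of the 10 genes in KO and for 10 of the 10 in WT, and for 22.8% of all genes in both genotypes at once. WT replicate 1 exceeded the mean of the other WT libraries from 1.06-fold for *Trim25* to 1.81-fold for *Trim30c*. What the replicate number stands for is not given in the labels, and its part in these levels was not tested.

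Compared within a replicate number, KO was above WT for every gene and every number. The log2 ratio for *Trim30a* was 0.70 for number 1, 1.06 for number 2 and 1.14 for number 3. For *Trim30c* it was 1.04, 1.58 and 1.76, and for *Trim30d* 0.71, 1.07 and 1.23. The ratio was smallest for number 1 in these genes and in *Trim30b*, *Trim12c*, *Trim34a*, *Trim21* and *Trim14*. *Trim25*, at 0.13, 0.10 and 0.12, and *Trim12a*, at 0.66, 0.65 and 0.77, did not have their lowest ratio there. Without WT replicate 1, the log2 fold changes of *Trim30a* and *Trim30d* were 1.15 and 1.21, and 4 of the 10 genes rather than 2 passed the stricter threshold.

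**Figure D3:**
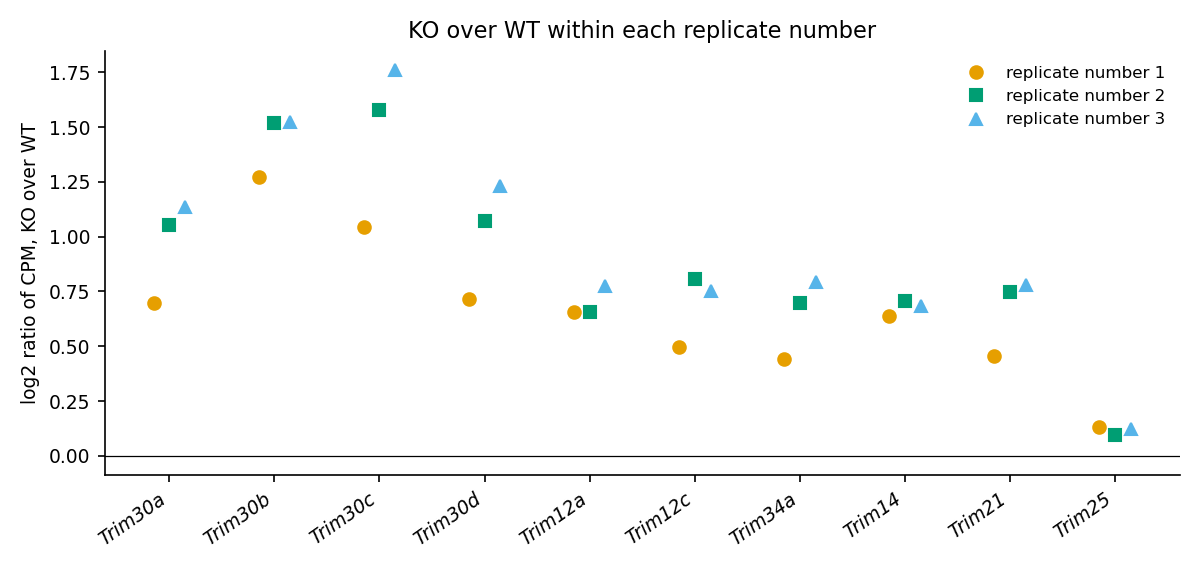
The log2 ratio of CPM, KO over WT, for each of the 10 genes within replicate numbers 1, 2 and 3, with 0 as the line of equal levels. Every point is above 0, and number 1 is lowest for 8 genes, most clearly for *Trim30c* (1.04 against 1.58 and 1.76).

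The sequence that copies share could bear on how reads were assigned. Of all 50-base windows of *Trim34a* transcripts, 59.7% also occurred, on either strand, in another gene, 39.8% in *Trim34b* and 20.2% in the antisense gene *Gm47248*. The windows shared with *Trim34b* numbered 1049, and the merged exons of *Trim34b* span 1850 bases. *Trim12c* shared 24.2% of its windows with *Trim5* and 6.38% with *Trim12a*. *Trim14* shared 29.5% with *Nans*, which overlaps it on the opposite strand over 1356 bp of exon. *Nans* was lower in KO, at 16.8 against 22.1 CPM, whereas *Trim14* was higher. *Trim12a* shared 10.5% of its windows with any gene, and *Trim30a* and *Trim30d* 5.98% and 7.49%, and *Trim30b*, *Trim30c*, *Trim21* and *Trim25* 1.48% or less. By this measure alone, the values of *Trim34a*, *Trim14* and *Trim12c* are the least certain of the group. Whether shared sequence altered any count was not tested, and the strand setting of the counting is not given in the sources used here.

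The rest of the family was taken as the genes whose symbols begin with Trim and a digit, which leaves out TRIM genes such as *Pml*. Besides the 10, 59 such genes were in the table, of which 13 had no count in any library and 33 were tested. Of these 33, 4 rose and 10 fell in KO, and 19 did not pass the test, against 18.1% and 19% of all genes. Their median log2 fold change was -0.18. Both counts depended on the fit, as 7 rose and 18 fell with the replicate block, against 24.4% and 26.4% of all genes, and 4 rose and 18 fell with upper-quartile scaling.

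*Trim26*, which encodes a regulator of the IFN response, was the only highly expressed gene of the 4 that rose, at 265, 242 and 219 CPM in KO and at 166, 143 and 137 CPM in WT. Its log2 fold change was 0.70 ± 0.0959 (SE, edgeR adjusted p = 0.00056). *Trim17* (log2 fold change 0.86), *Trim34b* (0.74) and *Trim13* (0.55) were at 4.09 CPM or less in every library. The 5 genes that fell the most were *Trim16* (-1.04), *Trim59* (-0.70), *Trim47* (-0.70), *Trim2* (-0.68) and *Trim65* (-0.61). *Pml*, the TRIM19 gene, which organises nuclear bodies and is IFN-stimulated, was at 414 ± 36.5 CPM in KO and 198 ± 38.6 CPM in WT (SD, n = 3). Its log2 fold change was 1.07 (edgeR adjusted p = 0.00034).

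**Figure D4:**
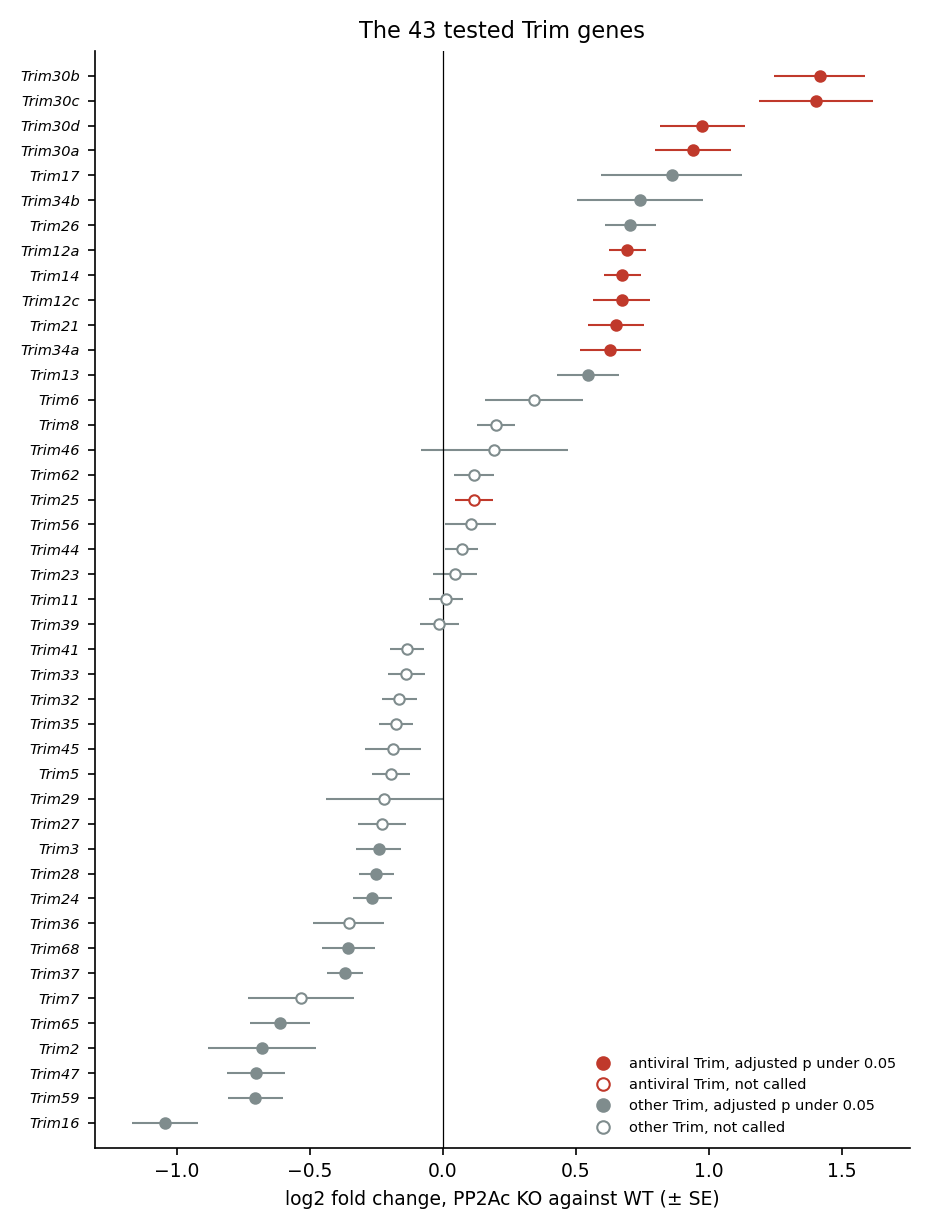
The log2 fold change, KO against WT, with its SE, of the 43 tested Trim genes in order, the 10 antiviral genes in red and the 33 others in grey, filled where edgeR's adjusted p was under 0.05. The 4 *Trim30* genes have the highest values, *Trim25* (0.12) lies near 0, and *Trim16* (-1.04) has the lowest value.

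Among the genes listed as targets, partners or pathway members of these TRIM proteins, 22 of 25 symbols were in the table. The rest were second names of genes in the table, and all 22 were tested. Of these, 12 rose and 1 fell, against 18.1% and 19% of all genes, 9 did not pass the test, and their median log2 fold change was 0.35. With the replicate block 14 rose and 2 fell, against 24.4% and 26.4% of all genes, since *Tab3* (edgeR adjusted p = 0.044) and *Ikbkb* (0.042) were then called higher and *Ikbkg* (0.012) lower. *Nlrp3*, the sensor of the inflammasome that TRIM30α restrains, had a log2 fold change of 1.59 ± 0.113 (SE, edgeR adjusted p = 5.4e-05), from 67.1 ± 7.04 CPM in WT to 202 ± 28.7 CPM in KO (SD, n = 3). *Irf7*, which drives IFN-α transcription, had a log2 fold change of 1.53 ± 0.134 (SE, edgeR adjusted p = 9.1e-05), *Isg15*, a ubiquitin-like modifier, 1.16 ± 0.0992 (adjusted p = 8.0e-05), and *Herc6*, the ligase for Isg15, 1.12 ± 0.178 (adjusted p = 0.0012). Of the TRIM30α targets named above, *Tab2* had a log2 fold change of 0.52 (edgeR adjusted p = 0.00099) and *Tab3* of 0.18 (adjusted p = 0.17, groups overlapping). *Tmem173*, the STING gene, is on the list too and had a log2 fold change of 0.35 (edgeR adjusted p = 0.0075, groups separated). *Ddx58*, which encodes the TRIM25 target RIG-I, had a log2 fold change of 0.96. *Mavs*, the mitochondrial adaptor at which TRIM14 acts, was the gene that fell without the block, with a log2 fold change of -0.45 ± 0.0710 (SE, edgeR adjusted p = 0.0012), at 32.9 CPM in KO and 44.9 CPM in WT.

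The genes of type I IFN signaling, by which TRIM genes are induced, were described from a list of 11. All 11 were tested, 9 rose and 0 fell, against 18.1% and 19% of all genes, with every log2 fold change above 0 and a median of 0.65. *Ifnar1* (log2 fold change 0.19) and *Jak1* (0.14) did not pass, and with the replicate block both did (edgeR adjusted p = 0.0022 and 0.018), so that 11 of 11 were higher against 24.4% of all genes. The largest change was that of *Ifnb1*, the IFN-β gene, at 19.2, 13.1 and 15.4 CPM in KO and at 8.86, 5.91 and 4.32 CPM in WT. Replicate 1 was the highest of its genotype for *Ifnb1* as well. Its log2 fold change was 1.32 ± 0.231 (SE, edgeR adjusted p = 0.0020). That of *Usp18*, a negative regulator of the receptor, was 1.27, and that of *Socs1*, an inhibitor of JAK kinases, was 0.81.

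The pattern of *Trim30a* over the 6 libraries was most like those of *Tut7*, *Eif2ak2*, *Herc6*, *Nampt* and *Acer3*, of all tested genes outside the group. Pearson's r of log2 CPM over the 6 libraries was 0.9994 for *Tut7* and 0.9990 or more for the other 4, a description only, since the libraries fall into 2 genotypes and share the replicate numbers. Their log2 fold changes were 0.76 for *Tut7*, 0.79 for *Eif2ak2*, which encodes the dsRNA-activated kinase PKR, 1.12 for *Herc6*, and 0.77 each for *Nampt* and *Acer3*.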

How the data were processed

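RNA from BMDM was poly(A)-selected, made into directional libraries and sequenced in paired ends. The authors deposited 1 table of read counts per gene symbol for the 6 libraries, whole numbers without normalization. The submitters' processing notes name the builds mm10 and GRCm38 and fastp 0.20.0, kallisto 0.46.1, STAR 2.7.1a, HTSeq 0.11.2, edgeR 3.34.0 and limma 3.48.3. Which of these made the counts, the annotation release and the strand setting are not given in the sources used here.

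The analysis used edgeR 4.0.16 in R 4.3.3. The filterByExpr filter (minimum count 10, minimum total 15) left 13680 genes, which were scaled by TMM and tested for genotype by glmQLFit and glmQLFTest, with p-values adjusted over them after Benjamini and Hochberg. A gene was called at an adjusted p under 0.05. Adjusted p-values beside gene values come from this test. The test was run on simulated data beforehand. SDs are over 3 libraries. A floor of 3 counts per library was 0.0604 to 0.0909 CPM and covers counting error only. Libraries of a genotype differed by more than counting noise.

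The members were chosen by symbol and not by their values, but both members and gene lists were chosen with earlier results of these data known. The genes named are all 10 members, *Ppp2ca*, the other genes of the cluster, the 5 other Trim genes with the largest and the 5 with the smallest log2 fold change among those called, up to 4 called genes per list, and the 5 genes most correlated with *Trim30a*. *Pml*, *Nans*, *Tab2*, *Tab3*, *Tmem173*, *Ikbkb*, *Ikbkg*, *Ddx58*, *Mavs*, *Ifnar1* and *Jak1* were added, and the marker genes *Fcgr1*, *Mertk*, *Lyz2*, *Itgax* and those at 0 chosen, after their values were seen. One gene of the IFN signaling list is not reported here by name. Coordinates, exons and windows are from the GENCODE annotation of GRCm38, and promoters from RefSeq.

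Same-numbered KO and WT libraries deviated together from their group means (correlation across genes 0.249, 0.126 and 0.310, against at most -0.016 for other pairs). Deviations from a group mean cancel within the group, so positive same-numbered values bring negative values for the other pairs. The numbers, taken from the labels, were treated as pairs only in the replicate block and in the comparisons within a replicate number. The main edgeR test and the permutation tests were unpaired. The alternatives were the replicate block, RLE and upper-quartile scaling, no filter, at least 10 counts in every library, DESeq2 1.42.0, limma-voom (limma 3.58.1), each library left out in turn, the longest transcript as length, and windows of 100 bases.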

Additional observations from a re-analysis of the deposited data

How the results depend on the processing

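Of the 10 genes, 9 were higher under all alternatives but the replicate block, under which *Trim25* passed as well, and 0 were lower under any. At that threshold the block changed no other call among them. At the stricter threshold 2 of the 10 passed, 3 with the block (*Trim30d* at a log2 fold change of 1.004) or with limma-voom, and 2 to 4 with 1 library left out (4 without WT replicate 1). Of the other Trim genes, 4 were higher, 7 with the replicate block and 2 to 3 with 1 library left out (2 without any 1 of the KO libraries or without WT replicate 1). There 10 were lower, 18 with upper-quartile scaling, which shifted the median of all genes to -0.088, 18 with the replicate block and 5 to 12 with 1 library left out (6 without KO replicate 1, 5 without KO replicate 2 or WT replicate 2). Of the called genes, 28.6% were higher, 18.2% with upper-quartile scaling, 18.2% without KO replicate 3, 14.3% without WT replicate 1 and 37.5% without WT replicate 2.

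The differences between KO and WT in the log2 ratios of copies moved within the spread of libraries. The difference for *Trim30d* to *Trim30a* ranged from -0.013 to 0.079 and reversed to -0.013 without WT replicate 3. The difference for *Trim12c* to *Trim12a* ranged from -0.063 to 0.069. It reversed to 0.021 without KO replicate 3 and to 0.069 without WT replicate 1. The difference for *Trim34a* to *Trim30a* ranged from -0.37 to -0.26. The causes of these changes were not tested. With windows of 100 bases, 39.0% of those of *Trim34a* and 8.05% of those of *Trim12c* were shared. Depth did not limit the 10 genes, each of which had at least 751 counts in every library.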
